A study of Mus musculus with 17 samples.

Results

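The 33 mouse genes described here make up the unfolded protein response of the endoplasmic reticulum (ER) and the integrated stress response, and were taken by gene symbol out of the 24676 genes of a liver RNA sequencing table. They comprise 14 ER chaperones and folding enzymes, 7 genes of ER-associated degradation, 4 stress sensors and their transcription factors, and 8 genes of the integrated stress response. All 33 passed the filter on low values, which kept 13379 genes. Bulk liver messenger RNA was measured in 17 libraries from male mice of mixed strain that were 11 weeks old per the sample labels and all carried 2 floxed alleles of Gata4 (Gata4 fl/fl), a gene for a zinc-finger transcription factor. The 4 groups were Gata4LKO with GW3965 (n = 5), Gata4LKO with vehicle (n = 4), control with GW3965 (n = 4) and control with vehicle (n = 4). Gata4LKO mice had received AAV8-Tbg-Cre, an adeno-associated virus whose Tbg promoter drives Cre recombinase in hepatocytes, and controls an empty AAV8, in both cases 1 week earlier, so the Cre cargo and the loss of Gata4 cannot be told apart. GW3965 activates the liver X receptors (LXR), nuclear receptors that sense sterols, and was gavaged in canola oil at 40 mg/kg, once 17 h and again 8 h ahead of sacrifice. Vehicle was DMSO in canola oil, and all mice had been fasted for 4 h. Groups follow the sample titles. The treatment field contradicts the title for the Gata4LKO mice with vehicle and for the controls with GW3965, and the age given in the series text differs from that of the samples.

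The ER folds and oxidizes secreted proteins, and the liver, which secretes most plasma proteins, carries a heavy folding load. Misfolded protein in the ER activates the sensors IRE1 (gene Ern1), PERK (Eif2ak3) and ATF6. IRE1 splices Xbp1 messenger RNA, and XBP1 and ATF6 then switch on chaperone and degradation genes. PERK phosphorylates the initiation factor eIF2, as do the kinases that sense amino acid shortage, haem shortage and viral RNA, which lowers translation in general while raising that of ATF4, the transcription factor of the integrated stress response. Spliced and unspliced Xbp1, phosphorylation and translation are not seen in gene counts, so activation of a sensor was not measured.

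Promoter elements of the ER branch and of the ATF4 branch are printed to show which genes carry which. RefSeq promoters on GRCm38.p6, 250 bases before to 50 bases after each start, were found for 29 of the 33 genes and searched on both strands. The ER stress response element (ERSE), which is bound by NF-Y with ATF6 or XBP1, was searched as CCAAT, any 9 bases and CCACG. It stood in the promoters of 9 of the 29 genes, against 0.137% of 27025 genes with a promoter in the table. All 9 code for chaperones or for degradation factors. The 10 copies are printed 5′ to 3′ on the strand that matches, with the fixed letters in capitals.
Hspa5: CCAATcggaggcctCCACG
Hsp90b1, upstream copy: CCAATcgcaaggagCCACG
Hsp90b1, downstream copy: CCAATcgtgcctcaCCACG
Pdia6: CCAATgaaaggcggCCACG
Calr: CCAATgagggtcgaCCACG
Canx: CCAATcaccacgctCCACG
Dnajc3: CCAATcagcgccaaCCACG
Creld2: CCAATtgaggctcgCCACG
Syvn1: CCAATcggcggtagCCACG
Derl3: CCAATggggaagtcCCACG
The 9 free bases differ among all 10 copies, while the distance between the fixed parts is part of the search. In Hspa5 the element ended 47 bases ahead of the start, and the whole promoter, at chr2:34771840-34772139 on the plus strand, shows further CCAAT letters upstream that lack a CCACG at the searched distance.
Hspa5 promoter: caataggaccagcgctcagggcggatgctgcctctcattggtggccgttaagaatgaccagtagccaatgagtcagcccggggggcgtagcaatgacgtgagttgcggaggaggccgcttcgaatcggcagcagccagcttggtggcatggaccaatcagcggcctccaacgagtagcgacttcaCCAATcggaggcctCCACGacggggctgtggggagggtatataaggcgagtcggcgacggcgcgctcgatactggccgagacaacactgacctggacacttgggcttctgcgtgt

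The C/EBP-ATF response element (CARE), read by ATF4 and its partners, was searched as TGATG, any base and AA. It stood in 5 of the 29 promoters, against 4.51% of all genes, and 4 of the 5 belong to the integrated stress response. They are printed with 8 flanking bases on each side, the fixed letters again in capitals.
Asns: cagccacaTGATGaAActtcccgc
Trib3: cgcccggcTGATGtAAacctgagc
Chac1: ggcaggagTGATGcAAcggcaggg
Atf3: ggacttggTGATGcAAgtgcgaga
Herpud1: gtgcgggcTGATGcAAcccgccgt
Asns, which codes for asparagine synthetase and had the widest fold range among members with reads in every library, carries its copy 23 to 16 bases ahead of the start. Its promoter lies at chr6:7693160-7693459 on the minus strand.
Asns promoter: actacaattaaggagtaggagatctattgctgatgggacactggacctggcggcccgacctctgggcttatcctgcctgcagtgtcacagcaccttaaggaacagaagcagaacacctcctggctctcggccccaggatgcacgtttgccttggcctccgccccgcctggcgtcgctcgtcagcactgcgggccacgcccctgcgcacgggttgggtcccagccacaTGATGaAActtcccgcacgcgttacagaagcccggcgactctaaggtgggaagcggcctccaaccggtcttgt
A related element, ERSE-II (ATTGG, 1 base, CCACG), was found in Dnajb11 and Herpud1, against 0.0444% of genes, so Herpud1 holds letters of both branches. No element overlapped another. A match describes letters and not a bound site. Hyou1, Derl1, Atf6 and Manf were not searched.

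Reads in genes numbered 11755516 to 22045786 per library, and the share of these 33 genes in the counts was 0.359% to 0.617%. In 5 libraries the mitochondrially encoded genes took 15.6% to 32.6% of counts, against 6.06% to 7.26% in the other 12. They were Gata4LKO GW3965 replicates 17 and 18, control GW3965 replicates 10 and 13 and control vehicle replicate 1, so no Gata4LKO vehicle library was among them. Gata4 itself did not separate the genotypes: its normalized counts spanned 160 to 260 in Gata4LKO GW3965 and 137 to 234 in Gata4LKO vehicle, against 164 to 258 in control GW3965 and 128 to 183 in control vehicle. The count covers the whole gene and all cells of the liver, so genotypes below are as labelled. Another gene, Gm5345, split the libraries by its normalized counts. They were 23.1 to 101 in Gata4LKO GW3965 and 0 to 1.64 in Gata4LKO vehicle. In control vehicle they were 30.3 to 66.0. In control GW3965 they were 0.833 to 43.8, with replicate 9 at 0.833 and replicate 10 at 1.00. GW3965 raised 11 of 12 LXR target genes when averaged over genotypes (limma adjusted p below 0.05), among them Abca1, a cholesterol exporter, by 1.00 ± 0.13 on the log2 scale (adjusted p = 0.000327). Markers of hepatocytes were abundant in every library, while 8 of 10 pancreatic acinar markers were at 0 or not in the table. The other 2, Cela1 and Cela2a, were present, with summed normalized counts between 143 and 393 per library. Cela1 averaged 328 ± 23.3 (SD) in control vehicle. Nothing in the labels ties each library to a mouse of its own, so p-values measure the spread between libraries.

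Per kilobase of exon, chaperones took 8 of the 9 highest places among the 33 genes, and the roles overlapped below them. Hsp90b1, the ER paralogue of HSP90, had a median of 3272 normalized counts per kb over the 17 libraries, followed by the lectin chaperone calreticulin (Calr) at 3038. Herpud1, which recruits the degradation machinery, came next at 2591, then the disulfide isomerase Pdia3 at 1960 and Hspa5 (BiP), the central ER chaperone, at 1905. Among the regulators, Xbp1 stood at 542 and Atf4 at 351 per kb. Sensor transcripts were lower, at 214 for Atf6, 134 for Ern1 and 38.3 for Eif2ak3. At the lower end were the pseudokinase Trib3 at 33.3, Ddit3 (CHOP), a transcription factor linked to cell death, at 25.5, Asns at 15.5, the degradation factor Derl3 at 3.90 and the transcription factor Atf3 at 3.41. Several low genes also varied widely, although Ddit3 differed only 3.80-fold. Between the lowest and the highest library Asns differed 103-fold, Trib3 29.8-fold, Derl3 14.3-fold and Chac1, a glutathione-degrading enzyme, 8.62-fold, against 1.42-fold for calnexin (Canx) and 1.45-fold for the co-chaperone Dnajc3. Many neighbours in this order had overlapping ranges. Of the exonic length, 10.3% in Hsp90b1 and 8.05% in Eif2ak3 overlaps a gene on the opposite strand, and whether counting used strand is not stated in these sources.

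**Figure D1:**
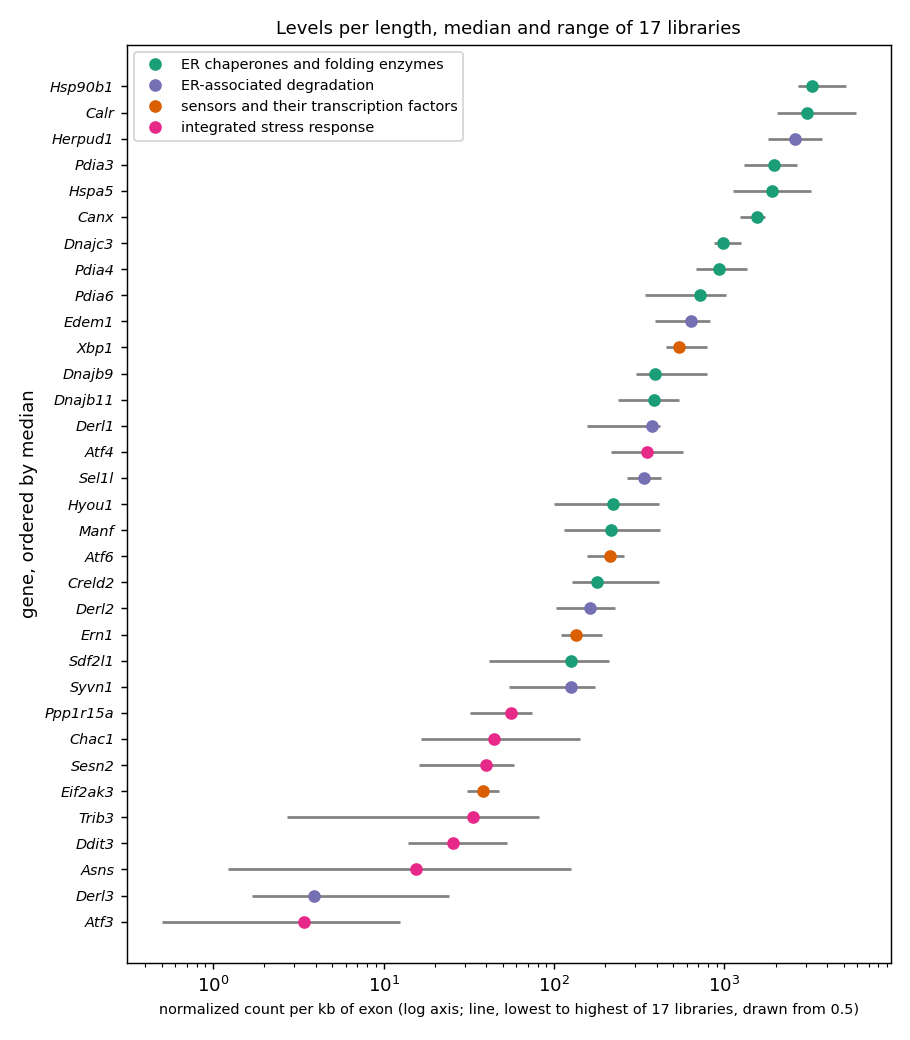
Median normalized count per kb of exon (points, coloured by role) and the range from the lowest to the highest of the 17 libraries (lines) for the 33 genes, on a log axis. Hsp90b1 leads at 3272 per kb, the degradation gene Herpud1 is the third at 2591, and several genes at the bottom, such as Asns at 15.5 per kb, have long lines.

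No member of either response passed the threshold in any of 7 comparisons with limma, the model fitted to log2(normalized count + 1) over all 13379 genes with Benjamini-Hochberg adjustment. The share of all genes called at an adjusted p below 0.05 was small as well: 0.247% for GW3965 against vehicle in Gata4LKO, 0.792% for GW3965 in control, 0.0598% for Gata4LKO against control under GW3965 and 0.0149% for the same under vehicle. It was 0.0149% for the interaction of genotype and treatment, 1.78% for GW3965 averaged over genotypes and 0.224% for Gata4LKO averaged over treatments. edgeR's quasi-likelihood test on recovered reads called 0 members in each of the 7, and DESeq2 called 1, Xbp1, for GW3965 in Gata4LKO. DESeq2 called 195 of all genes in that comparison, where limma called 33. In the authors' deposited tables the share of genes at an adjusted p below 0.05 was 1.33% for GW3965 in Gata4LKO, 1.62% for GW3965 in control, 0.510% for genotype under GW3965, 0.434% for genotype under vehicle and 0.190% for the interaction. Xbp1, again for GW3965 in Gata4LKO, was the only one of the 33 genes called there. The differences below are therefore values that missed the threshold of the main test, given with their errors: ± is the SE of a log2 difference and the SD of a mean of normalized counts. Comparisons that share a group share its libraries and are not independent.

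**Figure D2:**
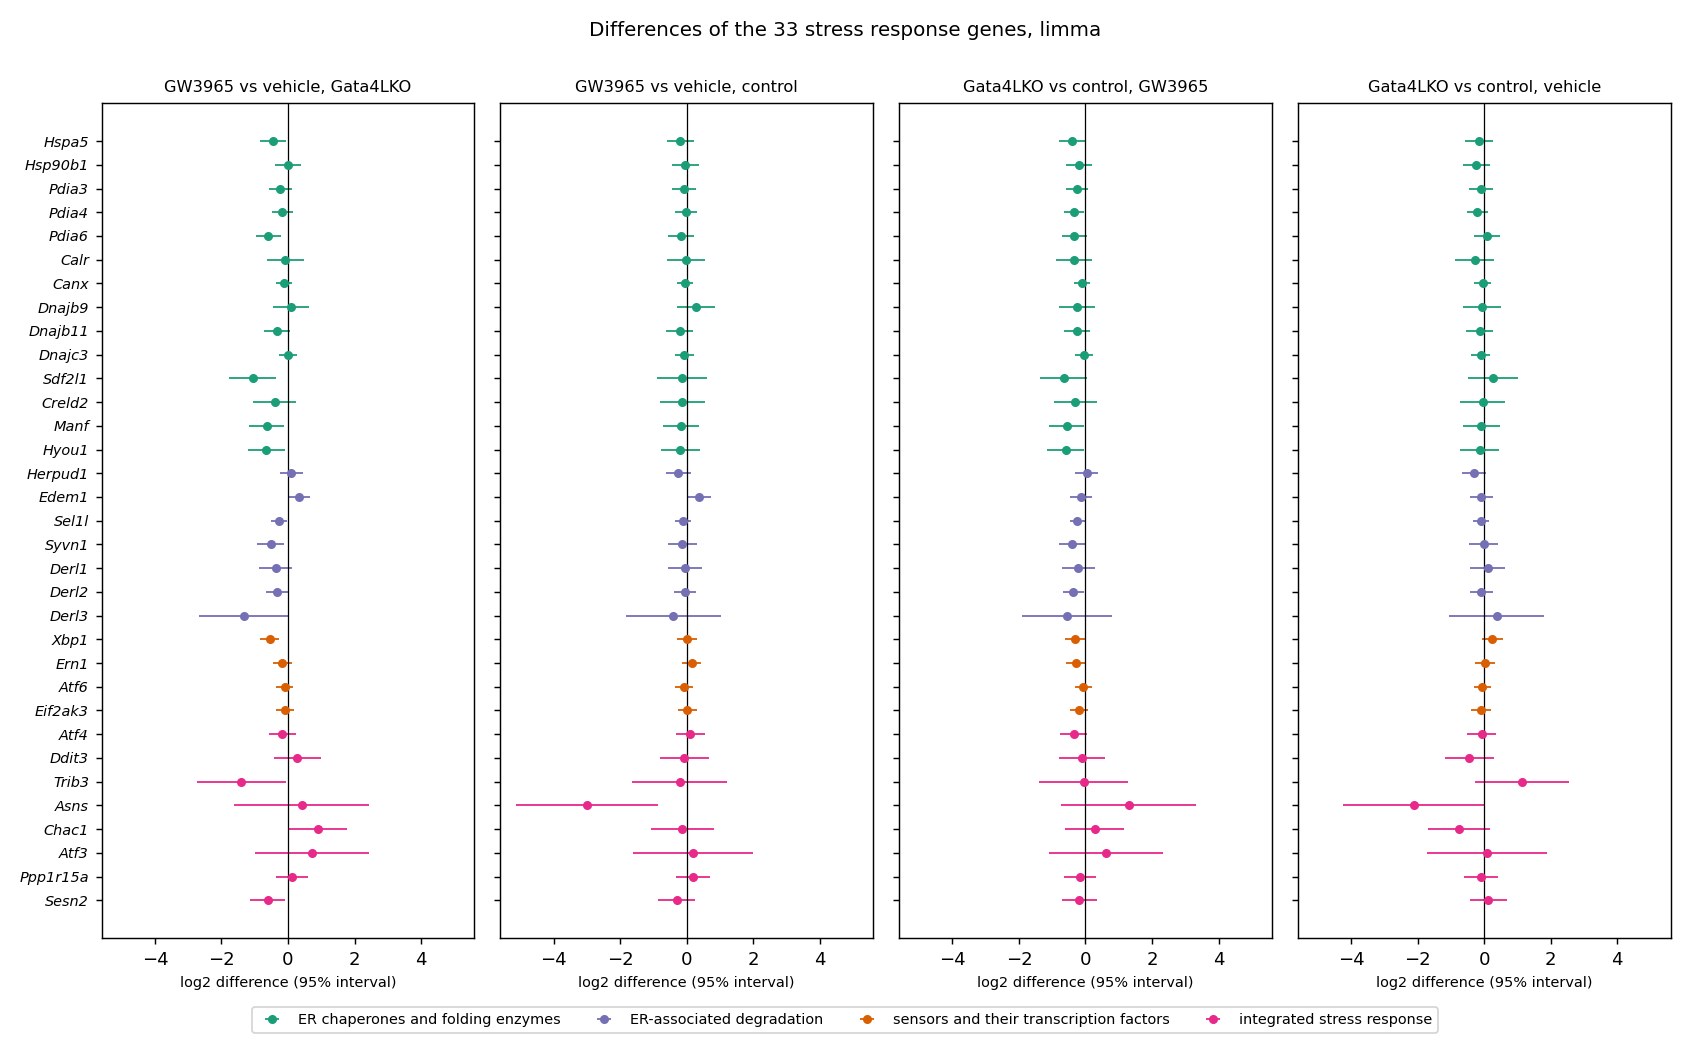
Log2 differences (points) with 95% intervals from limma (bars) for the 33 genes, grouped and coloured by role, in 4 comparisons, the first group of each title minus the second. Most chaperones lie left of 0 in the GW3965 comparison of Gata4LKO livers, and the intervals of Asns, Trib3, Derl3 and Atf3 are the widest.

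The first comparison asked how the livers labelled Gata4LKO responded to GW3965. Chaperones, degradation genes and Xbp1 tended to be lower with GW3965, whereas the integrated stress response genes went both ways. Of the 33 genes, 23 were lower and the median difference was -0.17 on the log2 scale, against -0.0049 for all genes. At an unadjusted p below 0.05, 11 were lower and 1, Chac1, was higher, while of all genes 5.55% were lower and 6.41% higher past that line. The 11 were 5 chaperones (Hspa5, Pdia6, Sdf2l1, Manf, Hyou1), 3 degradation genes (Sel1l, Syvn1, Derl2), Xbp1, Trib3 and Sesn2. The count of 11 was 5 without Gata4LKO vehicle replicate 6, 6 without Gata4LKO GW3965 replicate 18, and 7 without either of Gata4LKO vehicle replicate 5 and Gata4LKO GW3965 replicate 16. Without the libraries of high mitochondrial share it was 7. In 5 genes every GW3965 library lay below every vehicle library (Pdia6, Sdf2l1, Manf, Xbp1 and Syvn1), and 2.34% of all genes did so in that direction. In these bulk samples fewer cells of a type and less RNA per cell cannot be told apart. The groups of this comparison also did not overlap in their Gm5345 counts, given above. The part of that split in these values was not tested.

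Xbp1, the spliced transcription factor of the IRE1 branch, came closest to the threshold. It had 1758, 1467, 1536, 1489.5 and 1512 normalized counts in Gata4LKO GW3965, against 1969, 2552, 2562 and 2044 in Gata4LKO vehicle. The control values were 2391, 1996, 1762 and 1615 with GW3965 and 1522, 2175, 1746 and 2297 with vehicle. The 2 Gata4LKO groups did not overlap, and the control groups did. The difference in Gata4LKO was -0.55 ± 0.14 (SE), a fold of 0.684 with a 95% interval of 0.559 to 0.837 (limma adjusted p = 0.108). In the authors' deposited table it was -0.55 with an adjusted p of 0.0214, and DESeq2 on the recovered reads gave an adjusted p of 0.0195 where edgeR gave 0.105. Without the libraries of high mitochondrial share the difference was -0.52, and the 3 remaining GW3965 libraries still lay below every vehicle library. In control livers it was 0.0082 ± 0.15, and the interaction was -0.56 ± 0.20 (limma adjusted p = 0.900).

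Of the chaperones, 11 of 14 were lower in Gata4LKO GW3965, with a median of -0.28. Sdf2l1, a partner of ER J-domain chaperones, had 163, 118, 48.7, 114 and 45.8 normalized counts in Gata4LKO GW3965 and 164, 195, 177 and 196 in Gata4LKO vehicle. It had 128, 139, 138 and 145 in control GW3965 and 91.0, 234, 226 and 108 in control vehicle. The Gata4LKO groups were separate by a narrow gap, from 163 to 164, and replicates 16 and 18 of Gata4LKO GW3965 lay far below all others. The difference was -1.06 ± 0.34 (limma adjusted p = 0.244). Hspa5, whose ERSE is printed above, had 8009.5, 7863, 6135, 6112 and 4744 in Gata4LKO GW3965 and 8495, 9461, 7977 and 9105 in Gata4LKO vehicle. The groups touched at 8009.5 and 7977, and the difference was -0.44 ± 0.19 (limma adjusted p = 0.366). It was -0.26 without the libraries of high mitochondrial share, which include the lowest, replicate 18.

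Other chaperones, chosen after their values were seen, gave the same range of sizes. Pdia6, a disulfide isomerase, averaged 2199 ± 533 (SD) in Gata4LKO GW3965 (n = 5) and 3212 ± 218 in Gata4LKO vehicle (n = 4), a difference of -0.59 ± 0.18 (limma adjusted p = 0.208). Manf, a secreted ER stress factor, averaged 567 ± 158 and Hyou1, a large HSP70-family chaperone, 1169.6 ± 475 in Gata4LKO GW3965, against 861 ± 46.5 and 1732 ± 261 in Gata4LKO vehicle. Their differences were -0.64 and -0.65 (limma adjusted p = 0.331 for Manf and 0.350 for Hyou1). Not all chaperones did so: Hsp90b1 differed by 0.0074 ± 0.18 and Dnajc3 by 0.0018 ± 0.13, and Hsp90b1, Dnajc3 and Calr were at their highest over all 17 libraries in replicate 17 of Gata4LKO GW3965.

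Among the degradation genes, 5 of 7 were lower, with a median of -0.33. Derl3, which helps pull proteins out of the ER, had 6.28, 5.72, 5.97, 13.5 and 3.35 normalized counts in Gata4LKO GW3965 and 29.4, 6.31, 29.6 and 15.8 in Gata4LKO vehicle. The lowest vehicle library lay within the GW3965 range, and the difference was -1.32 ± 0.65 (limma adjusted p = 0.428). Syvn1, the ubiquitin ligase HRD1, averaged 487 ± 128 in Gata4LKO GW3965 and 678 ± 111 in Gata4LKO vehicle, a difference of -0.52 ± 0.19 (limma adjusted p = 0.324). Edem1, a mannosidase-like factor that marks glycoproteins for degradation, differed in the other direction, as did Herpud1 by a small amount (0.094 ± 0.16). Edem1 had 4819, 4093, 5089, 3771 and 3547 in Gata4LKO GW3965 and 3163, 3598, 3414 and 3325 in Gata4LKO vehicle, with an overlap of 1 library on each side. The difference was 0.32 ± 0.16 (limma adjusted p = 0.421).

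The integrated stress response split. Trib3, an inhibitor of AKT and of ATF4 itself, had 70.7, 80.1, 55.7, 5.78 and 75.9 normalized counts in Gata4LKO GW3965 and 115, 173, 128 and 71.0 in Gata4LKO vehicle. Replicate 17 of Gata4LKO GW3965 was the lowest of all 17 libraries. The difference was -1.40 ± 0.64 (limma adjusted p = 0.400), and -0.76 without the libraries of high mitochondrial share or -0.72 without replicate 17 alone. Chac1 leaned the other way: it had 93.4, 70.3, 233, 27.0 and 117 in Gata4LKO GW3965 and 42.0, 41.0, 55.0 and 47.3 in Gata4LKO vehicle, a difference of 0.90 ± 0.42 (limma adjusted p = 0.412). Its GW3965 libraries spanned both sides of the vehicle range. Atf4 had 655, 746, 1012, 509 and 984 in Gata4LKO GW3965 and 779, 1095, 787 and 772 in Gata4LKO vehicle, whereas Ddit3 had 39.3, 47.4, 29.8, 42.4 and 90.4 in Gata4LKO GW3965 and 41.4, 58.9, 23.8 and 35.9 in Gata4LKO vehicle. Both pairs of groups overlapped, with differences of -0.17 ± 0.20 for Atf4 and 0.28 ± 0.34 for Ddit3 (limma adjusted p = 0.711 and 0.717). Sesn2, which restrains mTORC1 signalling, averaged 117 ± 50.3 in Gata4LKO GW3965 and 168 ± 31.3 in Gata4LKO vehicle, a difference of -0.61 ± 0.25 (limma adjusted p = 0.355).

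Beside these values, 2 of 5 Gata4LKO GW3965 libraries and 0 of 4 Gata4LKO vehicle libraries had a high mitochondrial share. The summed counts of 7 stellate cell markers were 3950 to 5741 in Gata4LKO GW3965 and 2753 to 4141 in Gata4LKO vehicle. Of the 7, 6 were higher with GW3965, 4 at an unadjusted p below 0.05, and 1 was lower, with a median of 0.57. Those of 9 plasma and B cell markers, of which Tnfrsf17 stayed below 10 everywhere, were 703 to 902 in Gata4LKO GW3965 and 346 to 751 in Gata4LKO vehicle. For 10 Kupffer cell markers they were 4193 to 6242 in Gata4LKO GW3965 and 4155 to 5071 in Gata4LKO vehicle. The 6 markers of sinusoidal endothelium summed to 4274 to 7143 in Gata4LKO GW3965 and 4029 to 5071 in Gata4LKO vehicle. With GW3965 6 of 6 were higher, 3 at an unadjusted p below 0.05, with a median of 0.47. Of all genes 6.41% were higher past that line. The part of these marker differences in the results was not tested.

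**Figure D3:**
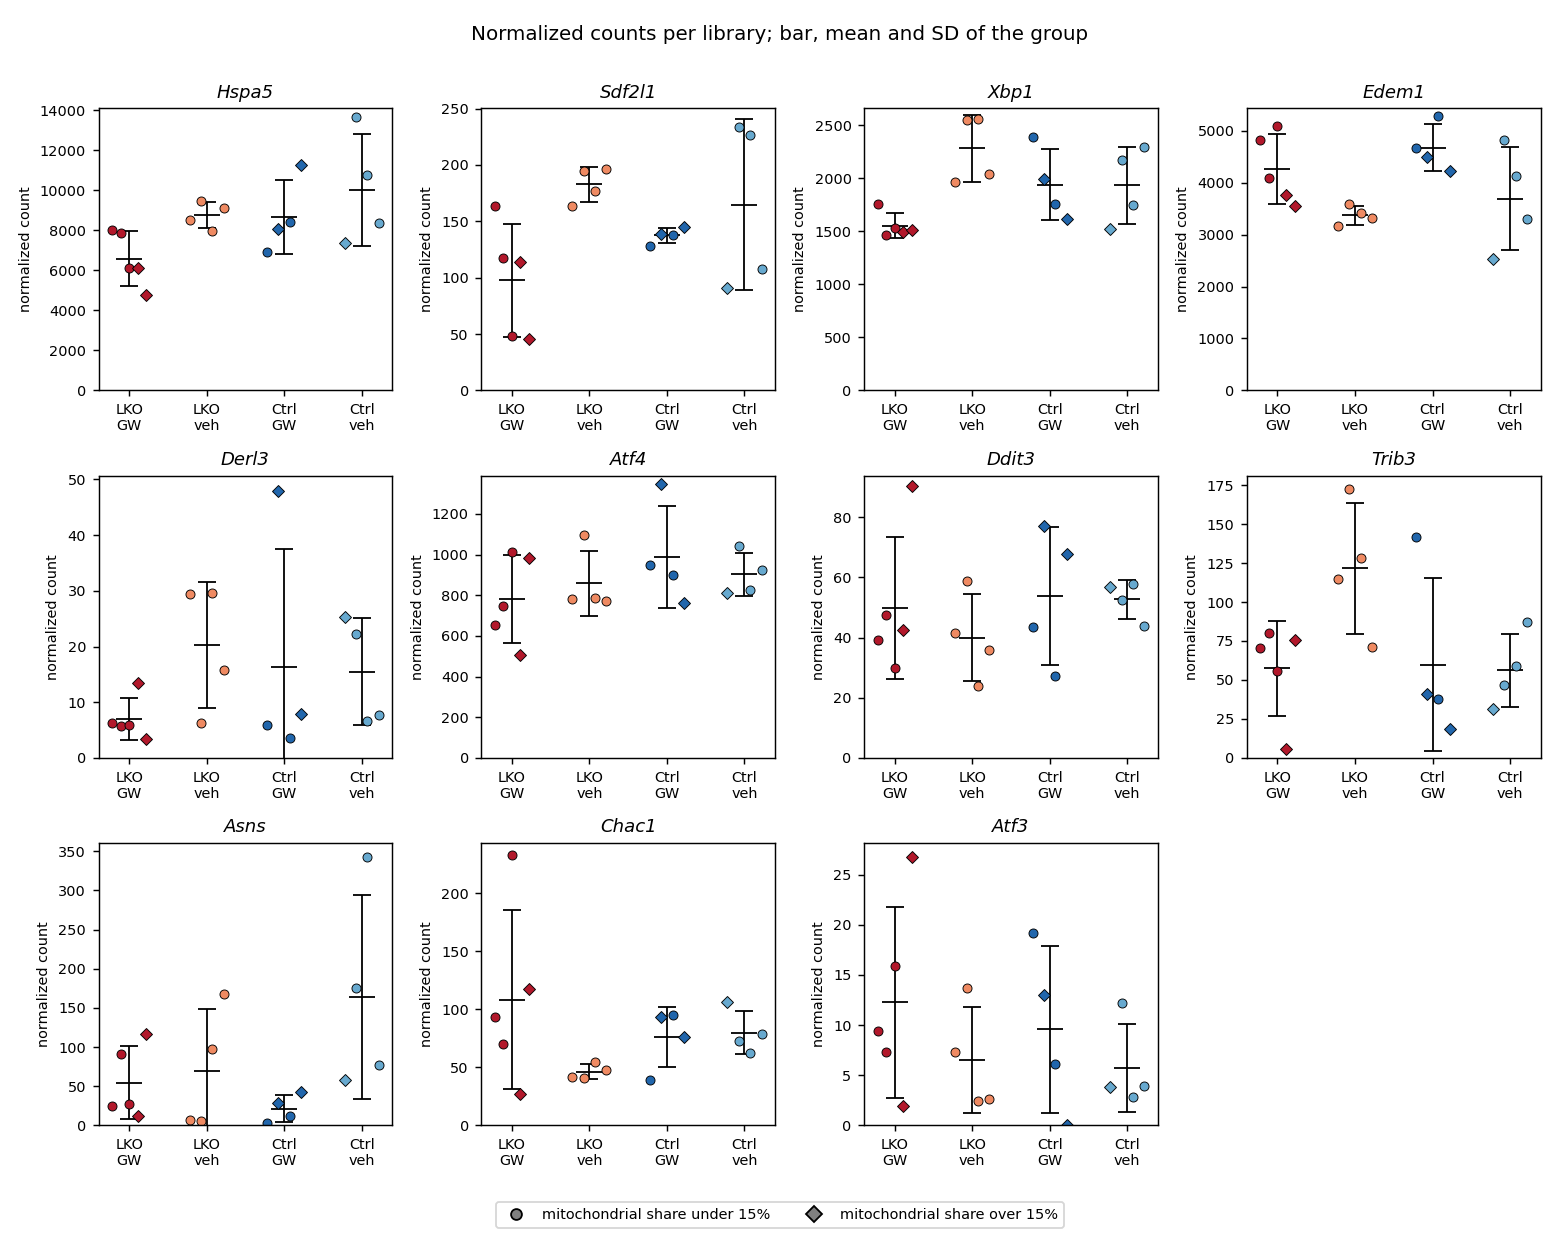
Normalized counts of 11 genes in every library (points, diamonds for the 5 libraries of high mitochondrial share), with the mean and SD of each group (bars). Xbp1 lies between 1467 and 1758 in Gata4LKO GW3965, below the 4 Gata4LKO vehicle libraries, whereas Asns and Trib3 scatter widely within groups.

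In control livers GW3965 was tested the same way. The ER genes differed little, with a median of -0.10 over the 14 chaperones, and Asns differed most. Of the 33 genes 25 were lower, with a median of -0.081, and 1 (Asns) was lower and 1 (Edem1) higher at an unadjusted p below 0.05, while of all genes 3.95% were lower and 5.02% higher past that line. Without control vehicle replicate 2, 15 of 33 were lower and the median was 0.012. Without the libraries of high mitochondrial share 26 were lower, the median was -0.28 and 6 were lower at an unadjusted p below 0.05. In 2 genes, Asns and Sesn2, every GW3965 library lay below every vehicle library, as did 2.71% of all genes. The 10 Kupffer cell markers summed to 4122 to 6967 in control GW3965 and 2389 to 3334 in control vehicle, and 10 of 10 were higher with GW3965. Limma called 1 of them, Cd5l, where it called 0.792% of all genes. Cd5l averaged 1444 ± 457 in control GW3965 and 611 ± 124 in control vehicle, a difference of 1.21 ± 0.21 (limma adjusted p = 0.0126). More Kupffer cells and more RNA per cell cannot be told apart here, and the part of these markers in these values was not tested.

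Asns had 3.33, 28.0, 11.4 and 42.5 normalized counts in control GW3965 and 58.1, 176, 343 and 76.7 in control vehicle. The Gata4LKO values were 24.3, 90.7, 27.8, 11.6 and 117 with GW3965 and 6.67, 5.26, 96.9 and 168 with vehicle. The control groups did not overlap, while Gata4LKO vehicle held both near-absent and high libraries. The difference in control was -3.00 ± 1.02, a fold of 0.125 with a 95% interval of 0.0283 to 0.549 (limma adjusted p = 0.282). Leaving out single libraries moved it between -3.48 and -2.37. In Gata4LKO it was 0.41 ± 0.96 with limma but -0.35 in the authors' deposited table, so the sign there depended on the method. Asns averaged 54.3 ± 46.6 (SD) in Gata4LKO GW3965 and 69.3 ± 78.7 in Gata4LKO vehicle. The interaction was 3.42 ± 1.40 (limma adjusted p = 0.996).

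Edem1 had 4672, 4495, 5292 and 4222 normalized counts in control GW3965 and 2527, 4821, 4131 and 3295 in control vehicle. Of the vehicle libraries, 3 lay below all with GW3965, and the difference was 0.38 ± 0.16 (limma adjusted p = 0.483). Derl3 had 5.83, 48.0, 3.50 and 7.97 in control GW3965 and 25.3, 22.3, 6.62 and 7.77 in control vehicle. Replicate 10 of control GW3965 exceeded all other libraries of the series, and the difference of -0.40 ± 0.68 (limma adjusted p = 0.961) was 0.099 with edgeR and 0.087 with DESeq2 on the recovered reads. Hspa5 had 6937, 8055, 8412 and 11254 in control GW3965 and 7349.8, 13642.5, 10744 and 8355 in control vehicle, overlapping throughout, with a difference of -0.19 ± 0.20.

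The next comparison asked how livers labelled Gata4LKO differed from control when both had GW3965. Of the 33 genes 29 were lower in Gata4LKO, with a median of -0.25 against -0.014 for all genes, and 14 of 14 chaperones were among them. At an unadjusted p below 0.05, 8 were lower and 0 higher, while of all genes 3.39% were lower and 3.08% higher past that line. The 8 were Hspa5, Pdia4, Manf, Hyou1, Xbp1, Ern1, Sel1l and Derl2. In none of the 33 did every Gata4LKO library lie below every control library, which held for 1.14% of all genes. Without the libraries of high mitochondrial share, 2 in each of these groups, 23 of the 33 were lower, the median was -0.091 and 1 gene passed the unadjusted line. With all libraries kept and mitochondrial share as a covariate, 28 were lower, the median was -0.26 and 11 passed it. The count of 8 was 1 without Gata4LKO GW3965 replicate 18, 2 without control GW3965 replicate 10, 3 without either of control GW3965 replicate 12 and Gata4LKO GW3965 replicate 16, and 4 without control GW3965 replicate 13.

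Hspa5 differed by -0.40 ± 0.19 in this comparison (limma adjusted p = 0.758), and by -0.069 without the libraries of high mitochondrial share. Sdf2l1 differed by -0.66 ± 0.34 (limma adjusted p = 0.838) and Xbp1 by -0.31 ± 0.14 (limma adjusted p = 0.741). Pdia4, a disulfide isomerase named after its values were seen, averaged 2029.6 ± 291 in Gata4LKO GW3965 and 2607 ± 520.05 in control GW3965, a difference of -0.35 ± 0.14 (limma adjusted p = 0.685). Atf4 had 950.1, 1346, 901 and 759.8 normalized counts in control GW3965, overlapping the Gata4LKO GW3965 range of 509 to 1012, and differed by -0.35 ± 0.20 (limma adjusted p = 0.881). Asns differed by 1.30 ± 0.96, the highest of the 33 genes (limma adjusted p = 0.996). Ddit3, with 43.3, 77.0, 27.1 and 67.7 in control GW3965, differed by -0.10 ± 0.34, and its sign turned without the libraries of high mitochondrial share (0.15). Atf3 had 9.42, 7.35, 15.9, 1.93 and 26.8 in Gata4LKO GW3965 and 19.2, 13, 6.12 and 0 in control GW3965, where replicate 13 had no read of the gene among its 15384172. Its difference of 0.63 ± 0.81 also turned, to -0.075, without the libraries of high mitochondrial share. Stellate cell markers summed to 3950 to 5741 in Gata4LKO GW3965 and 2980.1 to 3724 in control GW3965. Plasma and B cell markers summed to 703 to 902 in Gata4LKO GW3965 and 415 to 578 in control GW3965, so neither sum overlapped between the groups. Of the 6 plasma and B cell markers tested 4 were higher, 2 at an unadjusted p below 0.05, and 2 were lower. Igha alone averaged 241 ± 78.5 in Gata4LKO GW3965 and 118 ± 26.4 in control GW3965. Of the 7 stellate cell markers 6 were higher, 4 past that line, and 1 was lower. Among all genes 3.08% were higher past it. The part of these markers in these values was not tested.

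Under vehicle the livers labelled Gata4LKO and control differed little in the ER genes, with a median of -0.11 over the chaperones. Of the 33 genes 24 were lower in Gata4LKO, with a median of -0.088, and 0 passed an unadjusted limma p below 0.05 (edgeR 0, DESeq2 1), while of all genes 3.30% were lower and 2.85% higher past that line. Without control vehicle replicate 2, 17 were lower and the median was -0.0086. The integrated stress response had the widest values. Asns differed by -2.11 ± 1.02 (limma adjusted p = 0.818), although 2 of the 4 Gata4LKO vehicle libraries overlapped the controls. Trib3 had 115, 173, 128 and 71.0 normalized counts in Gata4LKO vehicle and 31.6, 46.8, 58.7 and 87.4 in control vehicle, a difference of 1.13 ± 0.67 (limma adjusted p = 0.888). Only the lowest Gata4LKO and the highest control library crossed. Chac1 had 42.0, 41.0, 55.0 and 47.3 in Gata4LKO vehicle and 106, 72.4, 62.4 and 78.6 in control vehicle, a difference of -0.76 ± 0.45 (limma adjusted p = 0.887). It was the only one of the 33 genes whose Gata4LKO libraries all lay below the controls, and 3.58% of all genes did so. Xbp1 differed by 0.25 ± 0.15 and Hspa5 by -0.16 ± 0.20, with 95% intervals of -0.061 to 0.55 for Xbp1 and -0.57 to 0.25 for Hspa5. Kupffer cell markers summed to 4155 to 5071 in Gata4LKO vehicle and 2389 to 3334 in control vehicle. Of these 10 markers 10 were higher in Gata4LKO, with a median of 0.66. At an unadjusted p below 0.05, 8 were higher, against 2.85% of all genes. Gm5345 counts, given above, did not overlap between these groups either. The part of the markers and of that split in these values was not tested.

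Averaged over genotypes, GW3965 libraries were lower in 27 of 33 genes with a median of -0.16, and 9 lower and 1 higher passed an unadjusted p below 0.05, against 7.45% lower and 7.87% higher of all genes. This contrast shares its libraries with the separate comparisons and is no further evidence. The 1 higher gene was Edem1, at 0.35 ± 0.11 (limma adjusted p = 0.141), and limma called it, at 0.45 with an adjusted p of 0.0119, once mitochondrial share was a covariate. Other degradation genes had the opposite sign, Sel1l, the adaptor of the HRD1 ligase, at -0.19 ± 0.081 and Syvn1 at -0.32 ± 0.14. The count of 9 was 3 without control vehicle replicate 2 or 3, 4 without Gata4LKO GW3965 replicate 18, 5 without control GW3965 replicate 9 or Gata4LKO GW3965 replicate 16, 14 without the libraries of high mitochondrial share, and 5 with that share as a covariate. Averaged over treatments, 31 of 33 genes were lower in Gata4LKO, with a median of -0.17, and 1 gene, Pdia4 at -0.28 ± 0.11, passed an unadjusted p below 0.05 as lower and 0 as higher, against 3.96% lower and 3.23% higher of all genes. That count ranged from 1 to 6 on leaving out single libraries, the highest without control vehicle replicate 1 or Gata4LKO GW3965 replicate 15, and was 7 with mitochondrial share as a covariate.

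The interaction asked whether the response to GW3965 differed between genotypes. Of the 33 genes 26 had a negative value, with a median of -0.15, and only Xbp1 (lower) and Asns (higher) passed an unadjusted p below 0.05, against 2.08% lower and 2.57% higher of all genes. Without the libraries of high mitochondrial share 13 of 33 were negative and the median was 0.051, whereas Xbp1 was -0.51 and Asns 4.96. With mitochondrial share as a covariate 26 of 33 were negative and the median was -0.19. A difference between genotypes in the response of the chaperones was not shown by this test, and the interval for Hspa5 ran from -0.81 to 0.32. Of the 10 Kupffer cell markers 10 were negative in the interaction, 5 at an unadjusted p below 0.05, against 2.08% of all genes. Their part in these values was not tested.

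Libraries of one group differed widely, in many chaperones at once but not in all of them. Control vehicle replicate 2 was the highest of all 17 libraries in 10 of the 14 chaperones, and Gata4LKO GW3965 replicate 18 the lowest in 10. Hspa5 had 4744 normalized counts in Gata4LKO GW3965 replicate 18 and 13642.5 in control vehicle replicate 2, a range of 2.88-fold. Within control GW3965, replicate 13 was the highest in 13 of 14 chaperones. Within Gata4LKO GW3965, replicate 17 was the highest in 9 chaperones, while its Hyou1, at 719, was the lowest of all 17 libraries. The same library was the lowest of its group in 7 of 8 integrated stress response genes. Its counts of Trib3, Chac1, Sesn2, Ppp1r15a and Atf4 were the lowest of all 17 libraries. Ppp1r15a (GADD34), which brings the phosphatase that reverses eIF2 phosphorylation, had 94.4 there, against 143 to 202 in the other 4 libraries of the group. It was also the library of the highest mitochondrial share, at 32.6%, and the lowest depth. The share of all genes at such extremes in these libraries is not given here. The counts of highest and lowest libraries therefore cannot be read as a trait of the stress genes.

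**Figure D4:**
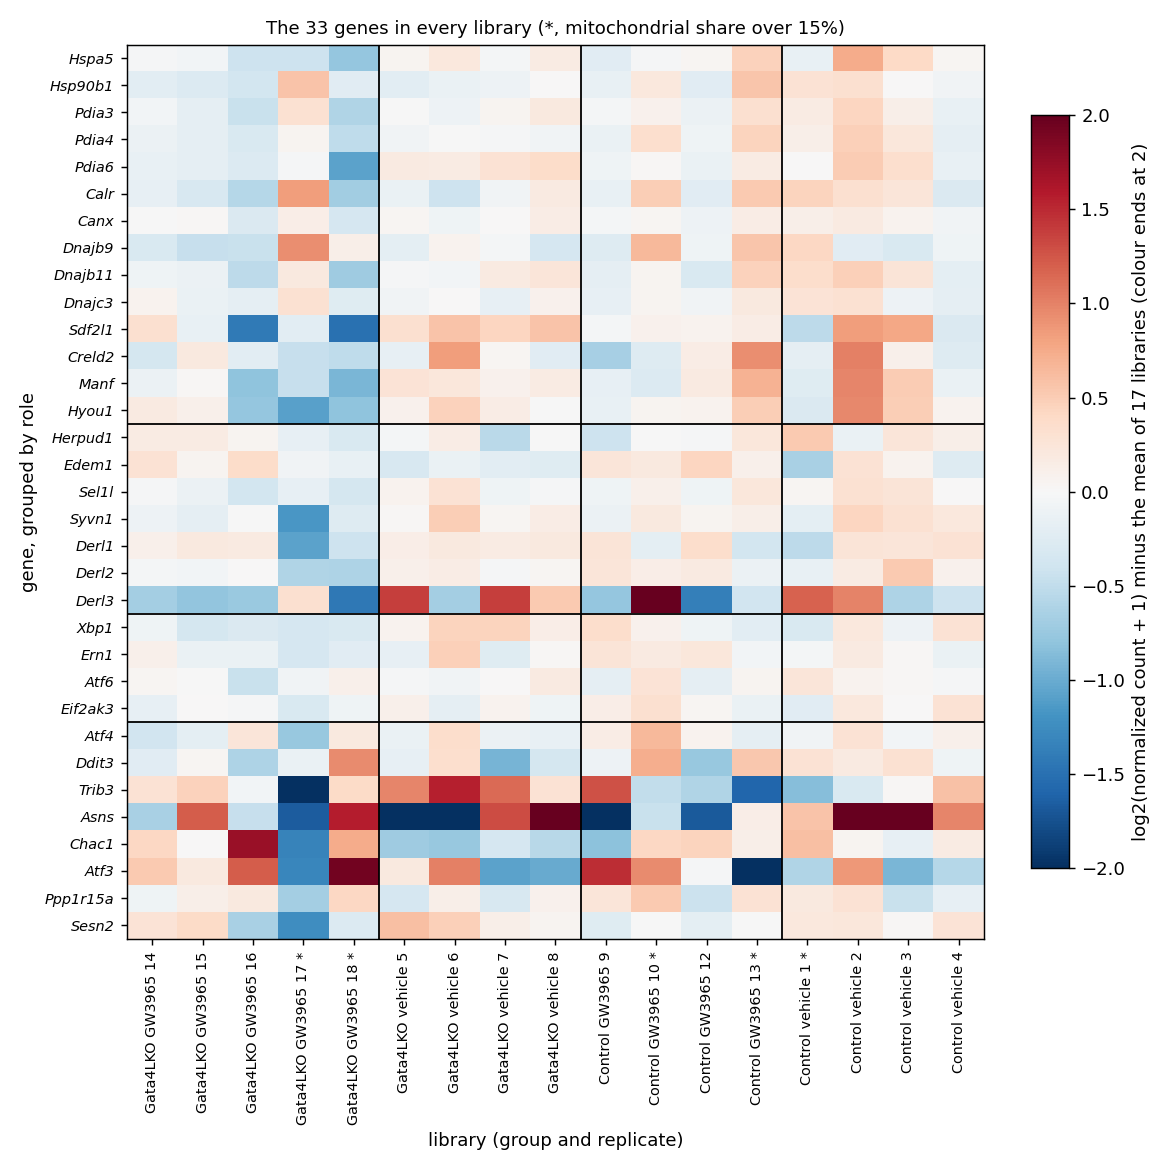
Log2(normalized count + 1) of the 33 genes in each of the 17 libraries, minus the gene's mean over all libraries, with genes grouped by role and libraries by group (asterisks, high mitochondrial share). Control vehicle replicate 2 is above the mean in nearly all chaperones and Gata4LKO GW3965 replicate 18 below it, while the rows of Asns, Derl3, Trib3, Chac1 and Atf3 vary gene by gene.

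Some members followed mitochondrial share within the groups. In each of the 3 groups that held such libraries, those of high share lay above the rest of their group for Dnajb9 and below it for Edem1, Derl1 and Derl2. Among all genes 10.3% did the first and 9.52% the second, so 1 and 3 of 33 members are no more than that background gives. Dnajb9 (ERdj4), a BiP co-chaperone induced by XBP1, had 2021 and 1156 normalized counts in the 2 high-share libraries of Gata4LKO GW3965 and 769 to 854 in the other 3. In control GW3965 it had 1668 and 1562, against 887 and 1001. In control vehicle it had 1406, against 855 to 1003. Derl1, a channel component of the degradation machinery, had 518 and 823 in the high-share libraries of Gata4LKO GW3965, against 1168 to 1253 in the others.

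**Figure D5:**
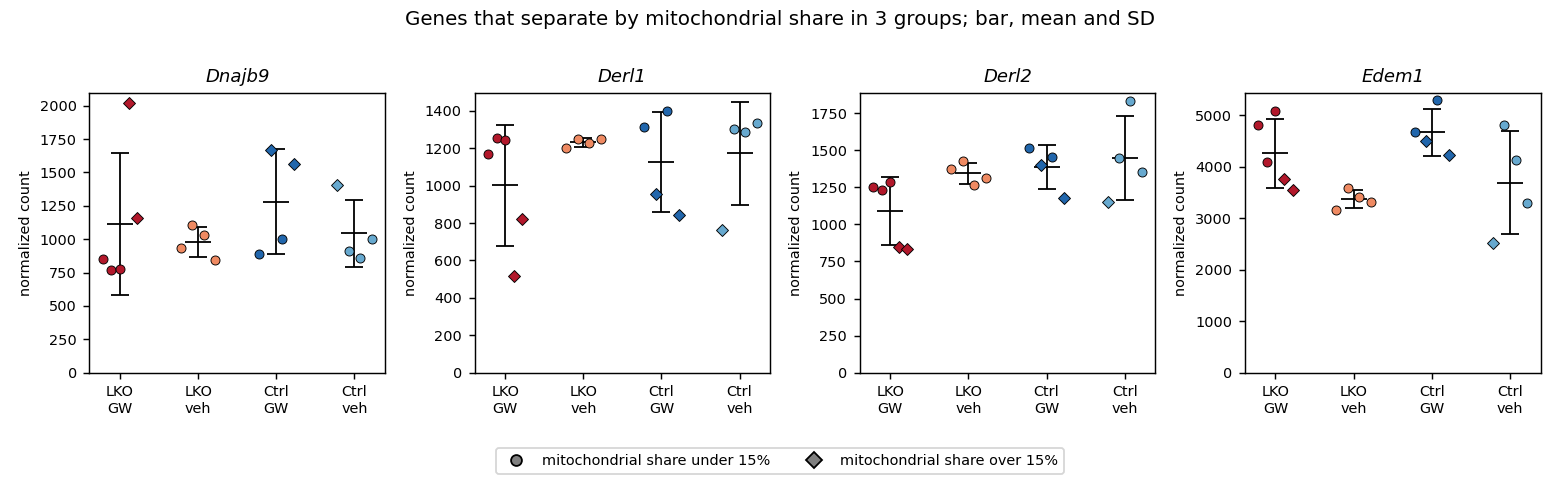
Normalized counts of Dnajb9, Derl1, Derl2 and Edem1 in every library, with the mean and SD of each group (bars) and diamonds for the 5 libraries of high mitochondrial share. The diamonds lie above the circles of their group for Dnajb9 and below them for the other 3 genes.

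The wider pathways had few calls as well. Of 40 other ER folding, translocation and redox genes tested, 0 were called in any of the 7 comparisons by limma or edgeR, and DESeq2 called Kdelr2, a retrieval receptor for ER residents, and Ddost, an oligosaccharyltransferase subunit, in 1 pairwise comparison each. In Gata4LKO against control under GW3965, 35 of the 40 were lower, 15 at an unadjusted p below 0.05 (3.39% of all genes), with a median of -0.19. Without the libraries of high mitochondrial share 32 were lower and 7 passed that line. For GW3965 in Gata4LKO 34 of 40 were lower, 8 at an unadjusted p below 0.05 (5.55% of all genes), with a median of -0.20. Of 20 other degradation genes and 22 other sensors and regulators, 0 were called by limma, edgeR or DESeq2. Edem2, a relative of Edem1, averaged 472 ± 119 in Gata4LKO GW3965 and 678 ± 107 in Gata4LKO vehicle, a difference of -0.55 ± 0.18 (limma adjusted p = 0.242), opposite in sign to Edem1. Creb3l2, an ER-bound transcription factor, averaged 276 ± 62.9 in Gata4LKO GW3965 and 392 ± 75.6 in Gata4LKO vehicle, a difference of -0.51 ± 0.17 (limma adjusted p = 0.274). The other genes with the largest differences in these 3 lists were Srp54a (-1.61 ± 0.72) and Fkbp11 (-0.60 ± 0.31) for Gata4LKO against control under GW3965, Ube2g2 (-0.41 ± 0.17) for the same under vehicle, and Creb3l1 (0.86 ± 0.67) for GW3965 in control.

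Among 34 other ATF4 pathway genes limma called 1, for Gata4LKO averaged over treatments, where it called 0.224% of all genes. Vldlr, the very low density lipoprotein receptor, which is an ATF4 target in stressed mouse liver, rose in Gata4LKO when averaged over treatments. In the authors' deposited tables Atf4 differed between genotypes by -0.073 under vehicle and -0.34 under GW3965, and was called in neither. Whether ATF4 had a part in the Vldlr values was not tested. Vldlr is described here by its values. It had 459, 315, 473, 464 and 388 normalized counts in Gata4LKO GW3965 and 294, 275, 392 and 383 in Gata4LKO vehicle, against 403, 207, 187 and 228 in control GW3965 and 181, 127, 179.8 and 236 in control vehicle. The vehicle groups did not overlap, and under GW3965 replicate 9 of control lay within the Gata4LKO range. The difference was 0.83 ± 0.16 (limma adjusted p = 0.0326, edgeR 0.0481, DESeq2 0.000808). The call was lost in 10 of 17 fits that each left out 1 library, with adjusted p of 0.00504 to 0.0871 and differences of 0.75 to 0.95, and without the libraries of high mitochondrial share (0.74, adjusted p = 0.217). For GW3965 averaged over genotypes, edgeR and DESeq2 called Aldh18a1, a proline synthesis enzyme, as higher, and limma did so only without the libraries of high mitochondrial share.

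Related stress lists were examined for comparison. Of 13 cytosolic heat shock genes 11 were higher with GW3965 in Gata4LKO, 7 at an unadjusted p below 0.05 (6.41% of all genes), with a median of 0.40, while the ER chaperones of the same libraries had a median of -0.28. Hsp90aa1, the inducible cytosolic HSP90, averaged 449.5 ± 124 in Gata4LKO GW3965 and 269 ± 48.6 in Gata4LKO vehicle, a difference of 0.71 ± 0.26 (limma adjusted p = 0.305). Among 13 immediate early genes, 13 were lower in Gata4LKO under vehicle, with a median of -0.49, against 51.5% of all genes. At an unadjusted p below 0.05, 3 were lower, against 3.30% of all genes. Under GW3965, 9 of the 13 were higher in Gata4LKO, with a median of 0.11. Egr1 averaged 41.8 ± 7.97 in Gata4LKO vehicle and 232 ± 146 in control vehicle (difference -2.07 ± 0.59, limma adjusted p = 0.390). DESeq2 alone called Egr1 there. Myc, which drives growth genes, averaged 295 ± 163 in Gata4LKO GW3965 and 102 ± 13.4 in Gata4LKO vehicle, a difference of 1.35 ± 0.42 (limma adjusted p = 0.222). Arntl (BMAL1) of the circadian clock, in Gata4LKO against control under vehicle, averaged 27.6 ± 17.9 in Gata4LKO vehicle and 88.1 ± 38.9 in control vehicle (difference -1.75 ± 0.49, limma adjusted p = 0.377). For GW3965 in control, the clock repressor Nr1d1 differed by 0.79 ± 0.30 and the small heat shock protein gene Hspb1 by 1.21 ± 0.55. Hspb1 was near the filter of 10, at 9.61 ± 1.99 in control GW3965 and 4.53 ± 3.74 in control vehicle (limma adjusted p = 0.517). None of these 3 lists had a gene called by limma.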

How the data were processed

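Liver RNA of 17 libraries was sequenced after TRIzol and spin column extraction and KAPA mRNA Hyperprep library preparation, per the labels' protocols. The submitters' processing notes list STAR 2.6.0c, mm10, FastQC and DESeq2, with no roles given. The counting program, its annotation and any strand setting are not stated there. The values of the main deposited table are a normalized signal, each library's reads scaled by 1 factor: 100% of values above 0 lay within 0.05 read of a whole number (largest distance 0.00101). Per the file headers, the comparison tables the authors deposited hold log2 fold changes. Raw and adjusted p-values stand beside them in those deposited tables. Columns matched samples by name, and 422 of 24676 genes had no symbol.

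limma-trend (limma 3.58.1, R 4.3.3) was fitted to log2(normalized count + 1) with 1 coefficient per group over all 17 libraries, for genes at 10 or more in at least 4 libraries (13379), with Benjamini-Hochberg adjustment at 0.05. Fold changes are on the log2(value + 1) scale, where the added 1 draws those of low genes towards 0. They are not uniformly smaller than those of the authors' deposited tables. Asns for genotype under vehicle was -2.11 with limma and -1.24 there. Derl3 for GW3965 in Gata4LKO was -1.32 with limma and -1.60 there. edgeR 4.0.16 and DESeq2 1.42.0 were run on the recovered reads as alternatives, next to other pseudocounts, filters, TMM scaling, mitochondrial share and leaving out libraries. The fit was tested on simulated data. Positions and exonic lengths are of GENCODE M21 on mm10, and promoters of RefSeq on GRCm38.p6. The members, their roles and the further lists were chosen with earlier results of these data known. Values in every library are given for the 3 members with the largest difference in each pairwise comparison, for members called over all genes, and for Hspa5, Xbp1, Atf4 and Ddit3; from each further list, called genes or those with the largest differences. Depth was 11755516 to 22045786 reads in genes, and replicate pairs differed by more than sampling noise.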

Additional observations from a re-analysis of the deposited data

Results flagged for a closer look

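In 6 of 44 sets of 4 or 5 libraries examined (11 genes in 4 groups), 1 library stood apart from the rest of its group by Dixon's criterion. The criterion gives about 1 in 20 by chance only for independent, normally distributed values. Here the counts were not logged, all 6 were a highest library, and most of the 11 genes were chosen for large differences. The 6 of 44 therefore cannot be set against that rate. Derl3 was high in Gata4LKO GW3965 replicate 17, at 13.5 normalized counts, and in control GW3965 replicate 10, at 48.0. Ddit3 was high in Gata4LKO GW3965 replicate 18, at 90.4 normalized counts. Xbp1 was highest in Gata4LKO GW3965 replicate 14, at 1758 normalized counts, which was still below every Gata4LKO vehicle library. Atf4 was high in Gata4LKO vehicle replicate 6, at 1095 normalized counts. Atf3 was high in control vehicle replicate 2, at 12.2 normalized counts.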

How the results depend on the processing

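Of 429 comparisons of 23 named values with another setting, 418 kept their direction and their side of the threshold, 9 turned and 2 passed the threshold. No member was called with another pseudocount, filter or scaling, with edgeR, or on leaving out any 1 library. Of all members, 1 (Xbp1) was called for GW3965 in Gata4LKO with DESeq2, at -0.55 (adjusted p = 0.0195), while its adjusted p reached 0.347 elsewhere. Likewise 1 (Edem1) was called for GW3965 averaged over genotypes with mitochondrial share as a covariate. In Gata4LKO against control under GW3965, Atf3 was -0.075 without the high-share libraries and -0.28 to 1.16 on leaving out single libraries (-0.28 without control GW3965 replicate 13), and Ddit3 was 0.15 without the high-share libraries and -0.39 to 0.10 on leaving out single libraries. Ddit3 turned without control GW3965 replicate 10 (0.10) or 13 (0.043) and without Gata4LKO GW3965 replicate 16 (0.052). Derl3 for GW3965 in control was 0.099 with edgeR, 0.087 with DESeq2 and -1.13 to 0.021 on leaving out single libraries (0.021 without control GW3965 replicate 12). The cause was not tested. The number of all genes called moved more, for GW3965 in Gata4LKO from 6 without Gata4LKO vehicle replicate 6 to 195 with DESeq2, against 33. No paired analysis was possible because the groups share no replicate numbers. Depth limits Atf3, Derl3, Asns and Trib3, which had under 10 normalized counts in some libraries.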
